A study of Mus musculus with 3 samples.

Results

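Somatostatin interneurons of the mouse medial prefrontal cortex were described here as the cells that carried GABAergic markers together with abundant Sst transcript. Of 52083 cell barcodes in 3 libraries, 187 were selected: 52 from the estrus library, 59 from the diestrus library and 76 from the male library. A selected cell had at least 2000 unique molecular identifiers (UMIs, each counting 1 captured transcript), at most 15% mitochondrial UMIs, and at least 4 UMIs of Gad1 and Gad2 together, under 1 of Slc17a7, at most 2 of C1qa, Cldn5, Mog and Gja1 together, and at least 20 of Sst, all per 10000 UMIs of the cell. The Sst, Gad1 and Gad2 levels of these cells, and the near absence of Slc17a7, are therefore properties of the choice and not findings.

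The study set out to describe prefrontal neurons that respond to the estrous cycle and to sex. Tissue came from female mice in estrus, female mice in diestrus, and male mice, with 2 animals pooled into 1 library per group, and neither strain nor age was stated in the labels. Cells were released with papain, cleaned on Percoll, and 15000 cells were loaded per library for 3′ single-cell RNA sequencing. With 1 library per group, library and group cannot be told apart, no difference between groups has a replicate check, and the intervals given below cover counting error only. A difference "past the fold" below means a ratio of at least 2-fold in either direction.

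Somatostatin interneurons are inhibitory cells that arise in the medial ganglionic eminence of the embryo, where the transcription factor Lhx6 directs their development. Most of them contact the dendrites of pyramidal neurons and thereby limit excitatory input, and they release peptides along with GABA. A sparse subset that carries neuronal nitric oxide synthase (Nos1) and the membrane protein chondrolectin (Chodl) is known for long-range axons.

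Short stretches are shown upstream of Sst, of Cort (cortistatin, a related peptide) and of Crhbp (the protein that binds corticotropin-releasing hormone). By summed level these 3 genes stood high in the selected cells and highest in the estrus library, and each held a match in the search below. Npy and Nppc were also highest in estrus but had no match and are not shown. Gad2 and Tac1 were highest in estrus by summed level and held a match, but are not shown either. The 3 genes are thus a choice among several. The 250 bases before each gene start in RefSeq (GRCm38.p6) were searched for the cyclic AMP response element TGACGTCA and its shorter form TGACG on both strands. The 30 bases around each match are given 5′ to 3′ on the minus strand, at chr16:23890874-23890903 for Sst, chr4:149126765-149126794 for Cort and chr13:95444879-95444908 for Crhbp. Capitals mark the match.
Sst: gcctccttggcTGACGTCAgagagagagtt
Cort: gctccggcttgtgCGTCAccgcgtgagtgt
Crhbp: agagctggaccctCGTCAttgccacgcatt
The complete element of Sst began 48 bases before the RefSeq gene start. GENCODE places the starts of Sst and Crhbp further upstream, so that 114 and 93 bases of their windows, the printed matches included, lie within the gene as GENCODE draws it. The complete element was held by 508 of 32851 windows of this length (1.55%). The shorter form, which is contained in the complete one, was held by 5836 windows (17.8%), among them those of Nos1, Gad2, Tac1 and Fos. These letters were not in the windows of Npy, Gad1 or Oxtr. A match describes the sequence only.

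On GRCm38 (GENCODE), Sst lies on chromosome 16 from 23889573 to 23890958, Npy on chromosome 6 from 49822710 to 49829507, Crhbp on chromosome 13 from 95431371 to 95444924, and Nos1 on chromosome 5 from 117781032 to 117958840. The files count UMIs per gene.

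The 3 libraries held 14476, 18052 and 19555 barcodes (estrus, diestrus and male, the order used throughout), with totals between 115632520 and 152291602 UMIs. The selected cells differed in depth, with medians of 34025, 22870 and 19165 UMIs, and 1, 2 and 9 of them had fewer than 5000 UMIs. Libraries shared between 68 and 97 barcodes pairwise, and no barcode was selected in more than 1 library. No selected cell exceeded a doublet score of 0.3.

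Among GABAergic cells chosen by the same limits without that on Sst, the selected cells made up 31.1% in estrus (52 of 167, exact 95% interval 24.2 to 38.8), 18.3% in diestrus (59 of 322, 14.3 to 23.0) and 24.8% in the male library (76 of 306, 20.1 to 30.1). Over barcodes that passed the UMI and mitochondrial limits, the shares ran in another order, at 0.410%, 0.509% and 0.634%. Estrus was thus highest by the first denominator and lowest by the second. Cells just inside the Sst limit had 21.2, 20.4 and 20.1 UMIs of Sst per 10000, and the highest cells outside it had 15.1, 17.0 and 16.0.

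By markers that the rule did not use, the label held against interneuron classes of caudal origin, and less clearly against Pvalb interneurons. Summed over the selected cells, Lhx6 was at 91.1, 99.5 and 95.4 counts per 1000000 nuclear UMIs (CPM), Calb1 (the calcium buffer calbindin) at 1515, 1000 and 1089 CPM, and Grin3a (an NMDA receptor subunit) at 569, 712 and 809 CPM. Elfn1, a postsynaptic protein known in these interneurons, was at 214, 200 and 211 CPM. Lhx6, Grin3a and Elfn1 stood above the other GABAergic cells in every library. Of those 115, 263 and 230 cells, only 5, 6 and 12 had Pvalb of at least 10 UMIs per 10000 with Vip below 10. The comparison therefore says little on Pvalb interneurons. Markers of interneuron classes of caudal origin were low: Htr3a and Sncg had no UMI in any selected cell, and Adarb2 reached 1.69, 27.3 and 2.75 CPM against 3444, 4991 and 3844 CPM in the other GABAergic cells. Vip was at 1.13, 32.7 and 2.75 CPM, and 33 of its 43 UMIs in diestrus came from 1 cell. The 8 markers of Pvalb interneurons, which share the medial origin, were closer, with sums of 264, 243 and 270 CPM against 610, 546 and 873 CPM in the other GABAergic cells.

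Set beside the 115, 263 and 230 other GABAergic cells, and ranked by the lowest ratio of the 3 libraries over 6484 genes, the genes highest in the selected cells after Sst were Crhbp, Unc13c, Nos1, Klf5, Lypd6, Cort, Lgals1, Tmcc3 and Lypd6b. These ratios follow from the choice of cells and carry no test. Crhbp was at 1457, 554 and 835 CPM against 42.0, 38.6 and 34.2 CPM. Unc13c, a vesicle-priming protein, was at 170, 199 and 208 CPM against 6.79, 15.7 and 10.2 CPM. Lypd6, which modulates nicotinic acetylcholine receptors, was at 207, 280 and 266 CPM against 19.9, 16.3 and 33.3 CPM. The lowest genes were Adarb2, Vip, Egfr, Pde11a, Cxcl14, Htr3a, Prox1, Sncg, Cacna2d1 and Nfib, several of which mark interneurons born in the caudal ganglionic eminence.

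**Figure D1:**
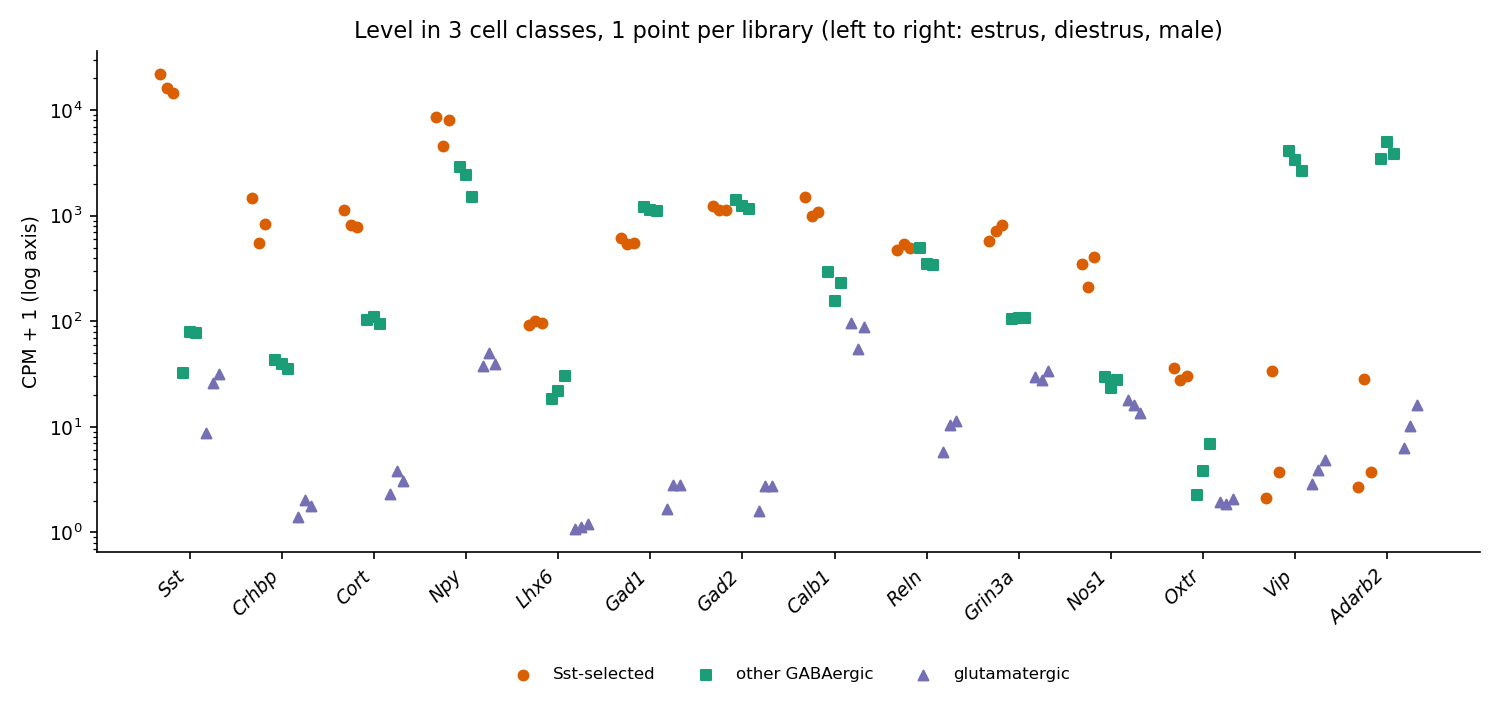
Summed level of 14 genes (CPM + 1, log axis) in Sst-selected, other GABAergic and glutamatergic cells, with 1 point per library in the order estrus, diestrus, male. Lhx6 lay between 91.1 and 99.5 CPM in the selected cells, while Vip lay between 2644 and 4093 CPM in the other GABAergic cells and at 32.7 CPM or below in the selected cells.

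Peptide levels varied widely among the selected cells. Npy, the precursor of neuropeptide Y, ran from 0 to 516, 446 and 663 UMIs per 10000 with medians of 8.68, 4.56 and 8. Cort ran from 0 to 141, 101 and 62.3 with medians of 0.853, 0.872 and 0.695. A UMI of Cort was seen in 35, 41 and 45 cells. With every cell thinned to 2000 UMIs, Cort was detected in 34.6%, 33.9% and 38.2% of selected cells and in 0.176%, 0.881% and 0.635% of glutamatergic cells, which should lack it. Unthinned, the shares were 67.3%, 69.5% and 59.2% of selected cells against 4.04%, 6.25% and 3.72% of glutamatergic cells, whose median depths were 39070, 27750 and 13043 UMIs. Crhbp was detected after thinning in 50%, 28.8% and 40.8% of selected cells and in 0.176%, 0.240% and 0.0907% of glutamatergic cells, and unthinned in 78.8%, 59.3% and 57.9% of selected cells against 1.49%, 2.80% and 1.36%. The intervals for Crhbp in estrus (35.8 to 64.2%) and diestrus (17.8 to 42.1%) overlapped.

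**Figure D2:**
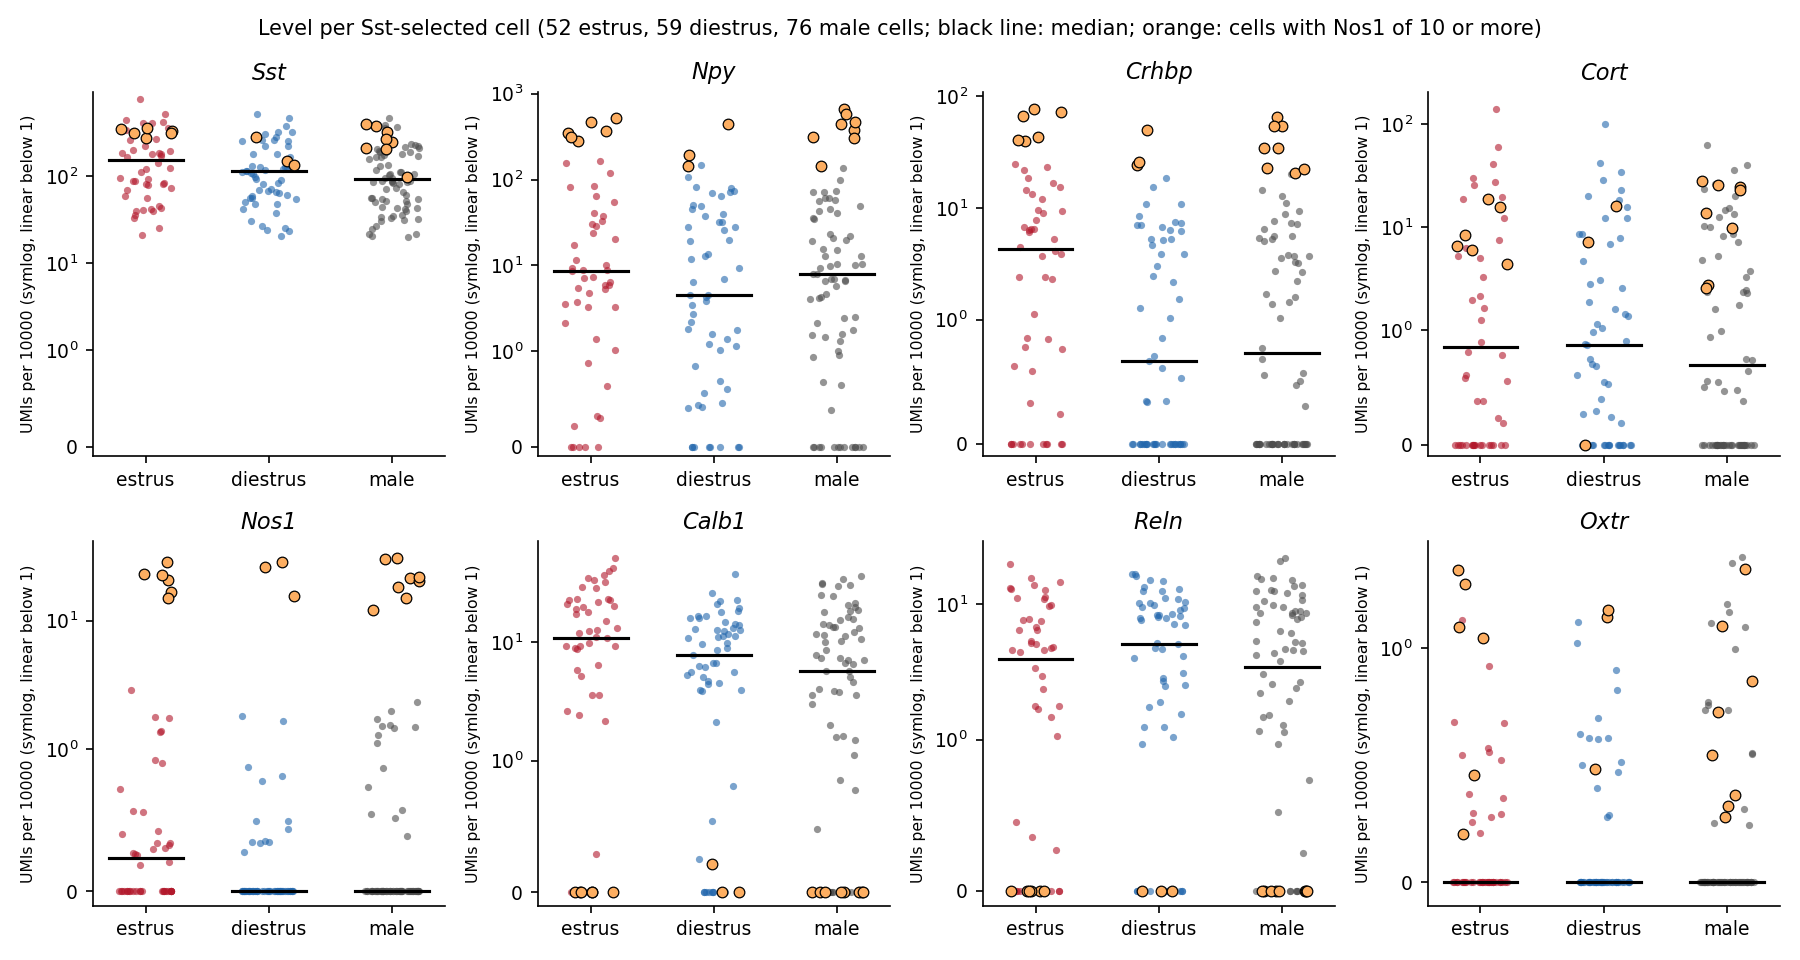
Level of 8 genes in each selected cell (UMIs per 10000, symmetric log axis that is linear below 1), by library, with the median as a black line. Orange points are the 17 cells with Nos1 of 10 or more, which lie at the top of Npy and Crhbp and at or near 0 for Calb1 and Reln.

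Nos1 divided the selected cells with a gap. In estrus 6 cells had between 15.2 and 29.0 UMIs of Nos1 per 10000 and the next cell had 2.87. In diestrus 3 cells had between 15.5 and 28.5 and the next had 1.81, and in the male library 8 cells had between 12.1 and 30.9 and the next had 2.31. The limit of 10 that separates these 17 cells was set after the values were seen, and a limit on Chodl (2 UMIs per 10000) had been tried first. That earlier limit took 6, 3 and 5 cells, all of them among the 17, and missed 3 male cells whose Chodl level was 1.31 to 1.82. The Nos1 cells made up 11.5% (4.35 to 23.4), 5.08% (1.06 to 14.1) and 10.5% (4.66 to 19.7) of selected cells, and the intervals overlapped.

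The Nos1 cells held a larger share of Npy, Crhbp and Penk than of all transcripts. They contributed 14.4%, 6.88% and 16.2% of the nuclear UMIs of the selected cells, against 67.3%, 44.2% and 76.8% of those of Npy and 58.1%, 46.4% and 68.0% of those of Crhbp. For Penk, the enkephalin precursor, the shares were 87.4%, 77.4% and 83.3%. Other peptides were less tied to these cells. Their share of Sst was 21.9%, 8.84% and 27.7%, of Cort 13.6%, 9.30% and 29.1%, of Pdyn 1.35%, 3.57% and 1.08%, and of Nppc 4.38%, 1.28% and 0%. Npy was at 40061, 29309 and 37835 CPM in the Nos1 cells and at 3265, 2730 and 2210 CPM in the others. Per cell, the lowest Nos1 cell of each library had 284, 145 and 142 UMIs of Npy per 10000, and the highest of the other cells had 164, 146 and 137, so the ranges met only in diestrus.

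Other genes divided along the same line. Ranked over 7008 genes by the lowest ratio of the 3 libraries, the highest in the Nos1 cells included Chodl, Nos1, Tacr1, Ndst4, Penk, Ptn, Rasgef1b, B3gat1 and Vwc2l. Nos1 made the cut and Chodl was the limit tried first, so the ranks of both follow from the choice of cells. The ratios carry no test. Tacr1, the receptor of substance P, was at 153, 232 and 229 CPM against 3.29, 0 and 4.10 CPM, and all 17 cells had a UMI. Pcp4, a calmodulin regulator, was at 3368, 3290 and 6009 CPM against 39.4, 224 and 111 CPM. Gad1 was at 1346, 1181 and 1080 CPM against 488, 497 and 449 CPM, while Gad2 was at 1404, 1159 and 1097 CPM against 1223, 1127 and 1132 CPM. Reln (reelin), Unc13c and Crh had no UMI in any of the 17 cells, which allows up to 11.7, 33.1 and 12.7 CPM in the 3 libraries. In the remaining cells Reln was at 555, 582 and 585 CPM. Crh had a UMI in only 7 of 46, 8 of 56 and 12 of 68 remaining cells, so its absence from the 17 says little. Calb1 had 1 UMI in the 17 cells and was at 1769, 1073 and 1300 CPM in the rest. Erbb4, the neuregulin receptor, was at 74.3, 132 and 72.0 CPM against 920, 1903 and 858 CPM.

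**Figure D3:**
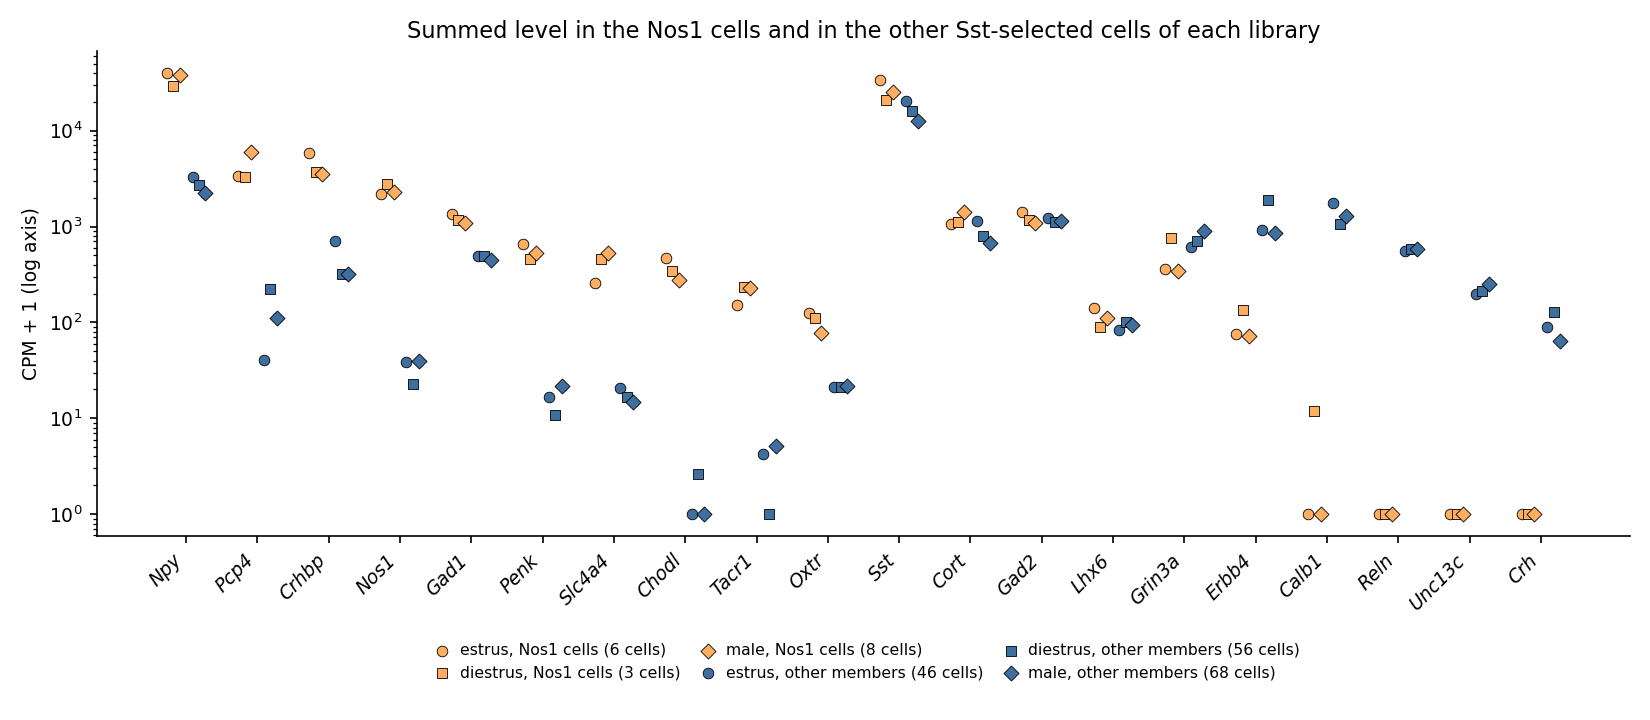
Summed level of 20 genes (CPM + 1, log axis) in the Nos1 cells (orange) and in the remaining selected cells (blue), with 1 symbol per library. Npy, Pcp4, Penk, Chodl, Tacr1 and Oxtr were higher in the Nos1 cells of all 3 libraries, while Reln, Unc13c and Crh had no UMI there and sit at 1 on the axis.

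Oxtr, the oxytocin receptor, was at 35.4, 26.6 and 29.5 CPM in the selected cells, at 1.27, 2.79 and 5.85 CPM in the other GABAergic cells and at 0.947, 0.877 and 1.07 CPM in glutamatergic cells. Within the selected cells it was at 125, 110 and 76.2 CPM in the Nos1 cells, all 17 of which had a UMI, and at 20.4, 20.4 and 20.5 CPM in the others. A UMI was seen in 21, 18 and 24 selected cells, which is 40.4%, 30.5% and 31.6% of them against 3.08%, 2.24% and 1.72% of glutamatergic cells. After thinning the shares were 3.85%, 5.08% and 5.26% against 0.0879%, 0.160% and 0.363%. The log2 ratio of the summed level was 0.40 for estrus over diestrus (95% counting interval -0.20 to 1.06), 0.26 for estrus over male (-0.32 to 0.86) and -0.15 for diestrus over male (-0.84 to 0.53). The data therefore do not resolve a difference in Oxtr between the libraries.

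Receptors for gonadal steroids were sparse. Pgr, the progesterone receptor, was at 28.7, 44.8 and 30.2 CPM, with log2 ratios of -0.63 for estrus over diestrus (-1.21 to -0.08) and 0.55 for diestrus over male (-0.02 to 1.17). Esr1, the estrogen receptor alpha, rested on 11, 7 and 7 UMIs (6.19, 5.32 and 4.8 CPM), too few to compare. Cacna1h, a T-type calcium channel, was at 4.50, 9.11 and 4.12 CPM.

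Between estrus and diestrus, 34 of 5599 genes were higher in estrus past the fold (0.607%) and 57 were lower (1.02%). By the same rule 0.655% of genes were higher and 1.86% lower in the other GABAergic cells, and 0.368% and 0.463% in glutamatergic cells. The ratios below are log2 of CPM plus 1. Sst itself was at 22227 CPM in estrus, 16333 CPM in diestrus and 14642 CPM in the male library, giving 0.44 for estrus over diestrus (0.42 to 0.47), 0.60 for estrus over male (0.58 to 0.63) and 0.16 for diestrus over male (0.13 to 0.19). Per cell its medians were 154, 115 and 92.5 UMIs per 10000, and the ranges of the libraries overlapped widely. Cort was at 1132, 816 and 787 CPM, with 0.47, 0.52 and 0.05 for the same pairs. With gene length corrected, estrus over diestrus was 0.09 for Sst and 0.12 for Cort, and estrus over male was 0.40 and 0.33. With a limit of 50 on Sst, Cort stood at 0.17 and 0.23. Sst was used to choose the cells, so its values are a description.

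Among the 6 marker genes Gad1, Gad2, Sst, Crhbp, Npy and Lhx6, Crhbp had the largest ratio, at 1.39 for estrus over diestrus (1.28 to 1.51). It remained past the fold without the Nos1 cells, at 1.16. Its value for estrus over male was 0.80 with all cells. It became 1.16 without the 17 Nos1 cells and 0.33 without the 14 cells taken by the Chodl limit.

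The ratios of Npy depended on few cells. At 8556, 4559 and 7983 CPM it gave 0.91 for estrus over diestrus, 0.10 for estrus over male and -0.81 for diestrus over male. Without the Nos1 cells the values were 0.26, 0.56 and 0.31, so that diestrus over male changed sign. Without the cells taken by the Chodl limit they were 0.26, -0.56 and -0.82, and estrus over male changed sign instead. The limits differ by 3 male cells only.

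**Figure D4:**
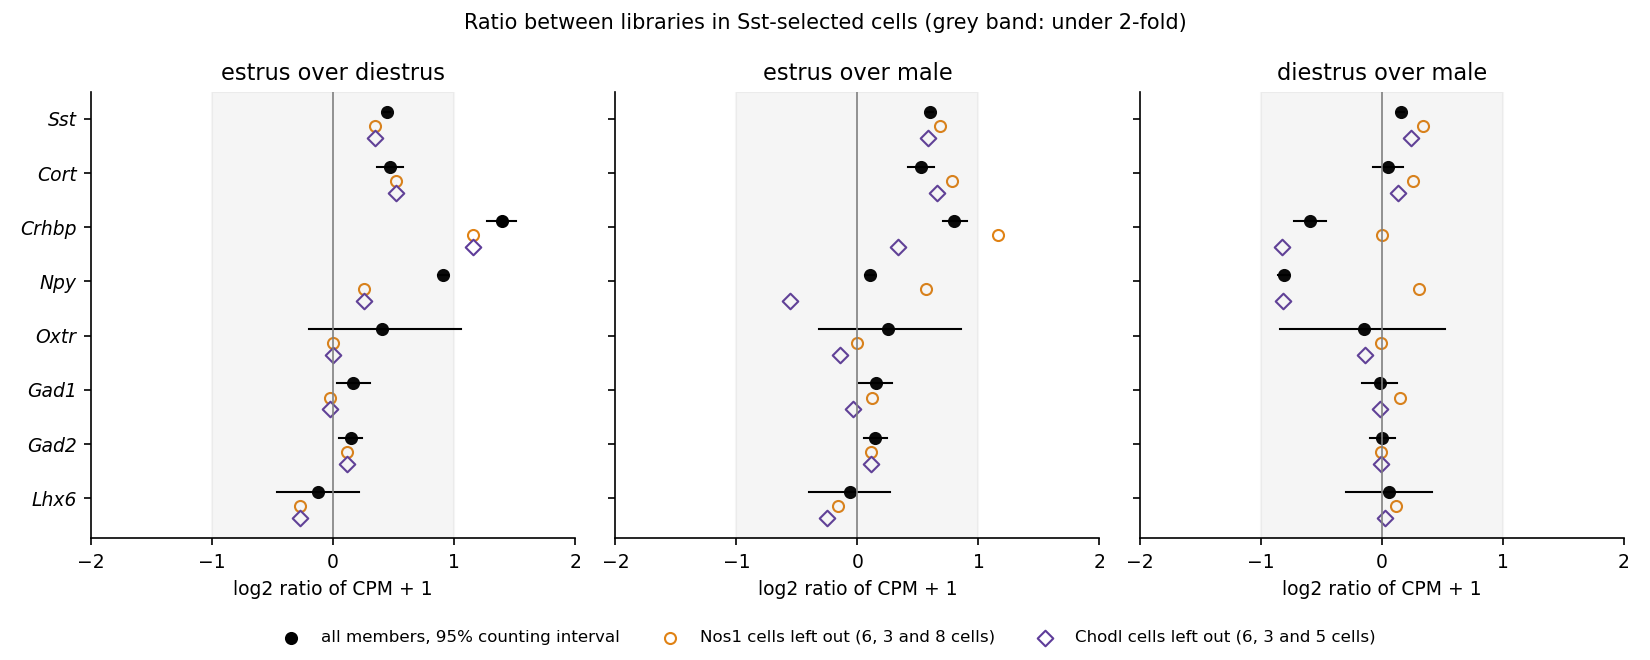
Log2 ratio of CPM + 1 between libraries for 8 genes, with all selected cells (black, 95% counting interval), without the Nos1 cells (orange circles) and without the cells taken by the Chodl limit (purple diamonds). Sst kept its sign in each pair, while Npy for diestrus over male was -0.81, 0.31 and -0.82.

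The genes furthest apart between estrus and diestrus were, on the higher side, Gm19951, Cmss1, Rasl11a, Gm42418, Ier5l, Eid2, Hnrnpa0, Nnat, Rab21 and Penk. Most were not particular to the selected cells. Gm19951, Cmss1, Eid2, Hnrnpa0 and Rab21 were also past the fold in the other GABAergic cells (2.86, 2.61, 1.80, 1.39 and 1.53). In glutamatergic cells they stood at 2.52, 2.39, 1.18, 1.28 and 1.02. Ier5l stood at 0.90 and 1.13 in these 2 classes, and Nnat at -1.16 and 0.10. Gm42418, a gene model that overlaps ribosomal RNA sequence, was at 6925 CPM in estrus and 1832 CPM in diestrus (1.92), and was also higher in the other GABAergic cells (2.10) and in glutamatergic cells (1.80). Rasl11a, a small GTPase-like protein, was at 87.2, 17.5 and 19.2 CPM (2.26), and was below the minimum level for a comparison in the other GABAergic and the glutamatergic cells. Penk was at 107, 40.2 and 103 CPM (1.39), and fell to 0.64 without the Nos1 cells. Of the 34 genes higher in estrus, 30 could be measured in the other GABAergic cells and 27 of them had the same sign there. Of the 34, 10 were past the fold there, where the share over all genes was 0.655%. In glutamatergic cells 27 of the 34 could be measured, and all 27 had the same sign. In that class 12 of the 34 were past the fold, where the share over all genes was 0.368%. The share of all genes with the same sign as in the selected cells was not computed for either class.

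On the lower side were, among others, Ptprk, Zfp804b, AC149090.1, Mbp, Epha3, Apoe, Kcnip4, Cnp and Cdh18. Mbp and Cnp are myelin genes. The 8 oligodendrocyte markers summed to 90.6, 677 and 286 CPM in the selected cells, and 1 diestrus cell held 109 of 194 UMIs of Mbp. Their part in the result was not tested. Apoe, a lipoprotein, had 63 of its 112 diestrus UMIs in 1 cell, and went from -1.84 to -0.97 without it. Kcnip4, a subunit of A-type potassium channels, was at 597, 2125 and 1144 CPM (-1.83), and 10 diestrus cells with Sst between 20 and 50 UMIs per 10000 were at 7445 CPM against 970 CPM in the 49 cells above. Of the 1748 UMIs of Kcnip4 in those 10 cells, 754 were in 1 cell, and their median was 9.26 UMIs per 10000. With a limit of 50 on Sst the ratio of Kcnip4 was -0.77, no longer past the fold. Of the 57 lower genes, 20 had over 25% of their UMIs in 1 cell.

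Between estrus and the male library, 34 of 5747 genes were higher in estrus (0.592%) and 42 lower (0.731%), sex-linked genes included. The shares were 0.890% and 1.77% in the other GABAergic cells and 0.540% and 0.891% in glutamatergic cells. This pair shares the estrus library with the first. Nppc, the precursor of C-type natriuretic peptide, was at 141, 59.2 and 25.4 CPM, with 2.43 for estrus over male (1.97 to 3.01), 1.24 for estrus over diestrus (0.88 to 1.64) and 1.19 for diestrus over male (0.64 to 1.83). A UMI of Nppc was seen in 28, 20 and 21 cells, with a highest cell of 16.1, 3.70 and 2.59 UMIs per 10000. In the other GABAergic cells it was at 17.0, 12.4 and 12.6 CPM, below the minimum level for a comparison. In glutamatergic cells it was at 43.8, 29.5 and 27.2 CPM, with 0.67 for estrus over male. Under every alternative run, Nppc in the selected cells stayed between 2.20 and 2.50 for estrus over male. Calb2 (calretinin) was at 257, 140 and 98.1 CPM (1.38, 1.12 to 1.67), and rested on 10, 7 and 8 cells with at least 2 UMIs per 10000, of which 10, 5 and 7 also had Calb1.

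The other genes high in estrus over male were Gm19951, Rasl11a, Cmss1, Gm42418, Pmepa1, Alkal2, Hnrnpa0 and Tmem128. All but Rasl11a and Alkal2 were also past the fold in the other GABAergic cells (2.40, 2.14, 1.81, 1.77, 1.39 and 1.07). In glutamatergic cells these stood at 1.59, 1.47, 1.42, 1.57, 1.52 and 0.84. Rasl11a and Alkal2 were below the minimum level for a comparison in both classes. The lowest for estrus over male included Hba-a2, Hba-a1, Hbb-bs, Hbb-bt, AC149090.1, Cdh18, Thsd7b, Greb1l and Gm32509. The first 4 are haemoglobin genes, and 1 male cell held 1268 of the 1365 UMIs of Hbb-bs. Cdh18, a cadherin, was at 43.9, 145 and 121 CPM (-1.44), and stood at -0.33 without the Nos1 cells and -1.39 without the cells taken by the Chodl limit. Thsd7b (-1.41) stood at -0.61 and -1.11 in the same order. Without the top cell of each gene, Hba-a2 stood at -0.97 and Hbb-bs at -0.55, under the fold.

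Between diestrus and the male library, 22 of 5263 genes were higher in diestrus (0.418%) and 12 lower (0.228%), sex-linked genes included. The shares were 0.210% and 0.158% in the other GABAergic cells and 0.0407% and 0.0678% in glutamatergic cells. On the higher side stood, among others, Nckap5, Zfp804b, Cnp, Mbp, Ptprk, Ptgds, Erbb4, Apoe and Sh3rf1. Erbb4 was at 1781 CPM in diestrus and 731 CPM in the male library (1.28). With a limit of 50 on Sst, Erbb4 stood at 0.75, Zfp804b at 0.15 (from 1.56) and Ptprk at -0.20 (from 1.42). Without the top cell of each gene, Mbp stood at 0.81, Ptgds at 0.43 and Apoe at 0.26, also under the fold. On the lower side, after the haemoglobin genes, were Pdyn, Penk, Pcp4, Slc4a4, Nefl and Inpp4b. Pdyn, the dynorphin precursor, was at 41.6, 21.3 and 63.8 CPM (-1.54). It was seen in 9 diestrus and 10 male cells, and 1 male cell held 42 of its 93 UMIs there. With each cell weighted alike Pdyn stood at -0.84, under the fold. Pcp4 was at 518, 435 and 1067 CPM (-1.29), and reversed to 1.00 without the Nos1 cells, while it stayed at -1.01 without the cells taken by the Chodl limit. Inpp4b, at -0.98, was just short of the fold. Of the 10 genes lower past the fold that are not sex-linked markers, 8 had over 25% of their UMIs in 1 cell.

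Of 15 neuropeptide precursors measured, 13 had a higher value in estrus than in diestrus (median 0.48), 3 of them past the fold, and 12 a higher value than in the male library (median 0.42), 2 of them past the fold. The list holds Sst, which was used to choose the cells and is counted among the higher genes in both pairs. The median of all candidate genes was 0.00 in both pairs. Tac1, the substance P precursor, had the largest value for estrus over diestrus (2.29), and 1 estrus cell held 240 of its 285 UMIs. That cell also had 30 UMIs of Pvalb. Crh went the other way at -0.62, as did Cck for estrus over male at -1.07. Late activity genes had medians of 0.40 and 0.44, with 6 of 7 and 8 of 8 higher. This list shares Crh, Vgf and Scg2 with the peptide list, so the 2 are not separate. Scg2 was its highest gene in both pairs (0.65 and 0.57). The peptide medians in the other GABAergic cells were 0.41 and 0.50, and in glutamatergic cells 0.35 and 0.29.

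Most glutamate receptor and adhesion genes had lower levels in estrus, nearly all by less than the fold. Of the glutamate receptors, 16 of 17 had a lower value than in diestrus (median -0.38) and 17 of 18 than in the male library (median -0.41), with 1 past the fold in each pair. Of all genes tested, 50.4% had a higher value in estrus in either pair. Grm3 was at 39.9, 99.5 and 63.8 CPM (-1.30 for estrus over diestrus). Grik3 was the exception, at 198, 167 and 165 CPM (0.24). Synaptic adhesion genes had lower values in 17 of 19 and 16 of 18 (medians -0.34 and -0.29), with 0 past the fold in either pair. The medians for glutamate receptors were -0.51 and -0.42 in the other GABAergic cells and -0.27 and -0.30 in glutamatergic cells.

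Of 21 potassium and HCN channel genes, 17 had a lower level in estrus than in diestrus (median -0.24), and of 10 GABA-A receptor genes 8 did (median -0.24). Against the male library the counts were 15 of 23 (median -0.10) and 6 of 10 (median -0.17), and both medians turned positive with gene length corrected, at 0.09 and 0.08. Htr1f, a serotonin receptor, was at 26.4, 80.5 and 57.0 CPM (-1.57 for estrus over diestrus and -1.08 for estrus over male). Chrm2, a muscarinic receptor, was at 90.6, 107 and 183 CPM (-1.01 for estrus over male). It was at 477, 618 and 957 CPM in the Nos1 cells and at 25.6, 69.3 and 33.6 CPM in the others, and the median of its list for estrus over male went from -0.72 to 0.02 without the Nos1 cells. Genes of GABA synthesis and release stood near 0, with medians of 0.01, 0.02 and 0.02 for the 3 pairs. Lineage genes had medians of -0.13, -0.06 and 0.04. Among them Satb1, a chromatin organiser of these cells, was at 467, 532 and 549 CPM, and Sox6, a factor of their maturation, at 304, 446 and 434 CPM (-0.55 for estrus over diestrus). The steroid receptor list had medians of 0.00, -0.11 and -0.12.

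These group values moved with gene length. With the genes cut into 5 groups by length, the median ratio of estrus over diestrus was 0.31 in the shortest group (median 4.89 kb) and -0.32 in the longest (median 239 kb). For estrus over male the values were 0.20 and -0.21, and for diestrus over male -0.08 and 0.12. With the running median over length removed, the medians for estrus over diestrus were 0.21 for neuropeptide precursors, -0.10 for glutamate receptors, -0.09 for adhesion genes and 0.33 for late activity genes. Heat shock genes were higher in 9 of 9 (0.28) before this step and had a median of 0.08 after it. What made length matter was not tested.

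**Figure D5:**
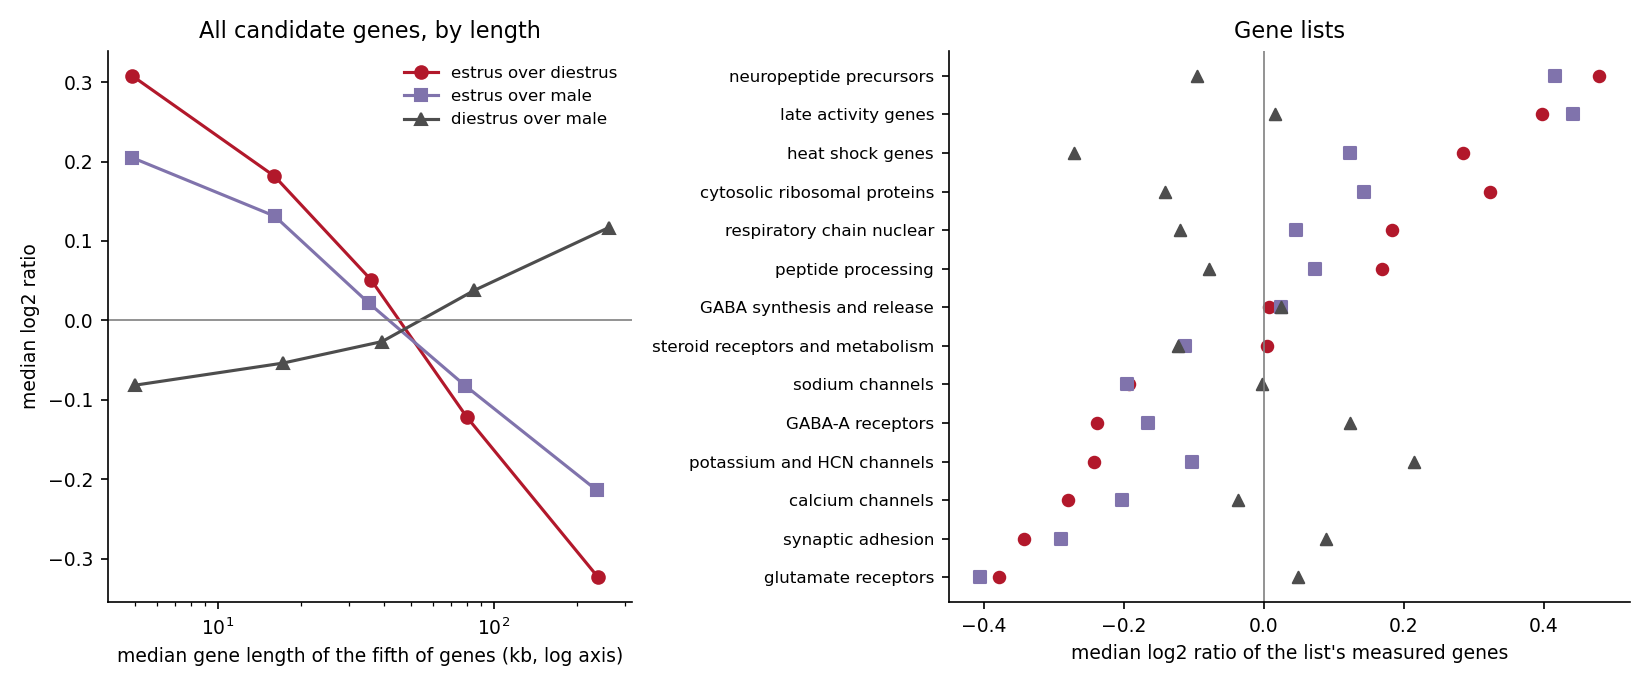
Left, median log2 ratio of candidate genes in 5 groups by gene length (kb, log axis) for the 3 pairs of libraries. Right, median log2 ratio of the measured genes of 14 lists, in which neuropeptide precursors (0.48) and glutamate receptors (-0.38) lie at opposite ends for estrus over diestrus.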

How the data were processed

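The deposited matrices hold UMI counts per gene and barcode, made by the authors with Cell Ranger on mm10 (version 3.0.2 per the submitters' processing notes, 7.0.0 per the file headers). They list 32285 genes, with no barcode below 500 UMIs. Cells were chosen by fixed limits, with no clustering. Nuclear UMIs of the chosen cells were summed per library and scaled to CPM, and 1 CPM was added to each side before the log2 ratio. Genes needed 100 UMIs over both libraries and a mean of 20 CPM. Intervals are exact binomial at 95%. No test across libraries was possible with 1 library per group. Gene lengths came from GENCODE, matched for 32235 genes. The ratio step was tested on simulated library totals with random counting error only. They held no differences between cells, so the test could not check ratios that rest on few cells.

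Named genes were the 10 highest and 10 lowest ratios per pair among genes with a UMI in at least 10% of cells of the higher library, without mitochondrial and sex-linked marker genes, plus the marker genes and the extremes of each list described. Other cell classes used the same limits with Sst below 20; glutamatergic cells needed Slc17a7 of at least 4 and Gad1 and Gad2 below 1. The cells and lists were chosen with earlier results of these data known. Alternatives included edgeR 4.0.16 and DESeq2 1.42.0 scaling, other limits, gene length and single cells. After the values were seen, 2 further alternatives were added: first, cells with Chodl of at least 2 left out, then cells with Nos1 of at least 10 left out. Both are reported. Scrublet (scanpy 1.11.5) gave each barcode a doublet score, and barcodes above 0.3 were an alternative to leave out. Results for some genes that the rule names are not reported here.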

Additional observations from a re-analysis of the deposited data

How the results depend on the processing

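No paired analysis was possible because each group had 1 library. With each cell weighted alike, 73 genes were higher in estrus than in diestrus, 56 higher than in the male library and 75 lower than in it. With no minimum of UMIs or CPM the counts were 790 higher and 1498 lower for estrus over diestrus, 801 and 1216 for estrus over male, and 1063 and 867 for diestrus over male. With 5 CPM added, 26 genes were lower for estrus over male, and with gene length corrected 22 were higher. For diestrus over male, 14 genes were higher with an Sst limit of 50 and 11 without the top cell of each gene. With that Sst limit the male share was 18.6% of GABAergic cells and 0.476% of barcodes. At 5000 UMIs the shares of barcodes were 0.581%, 0.766% and 0.998%. Among named genes past the fold, signs turned in diestrus over male for Pcp4 (1.00) and Slc4a4 (0.14) without the Nos1 cells. Ptprk turned in the same pair (-0.20) with an Sst limit of 50. Npy, under the fold in each pair, turned as given above. Chodl in estrus over diestrus went from 1.39 to -1.40 under either limit. That value followed from the removal itself, which left 0 UMIs of Chodl in estrus and 2 in diestrus. The Chodl limit did not turn Pcp4 (-1.01) or Slc4a4 (-1.78). The other 84 counts and shares moved by less than 1.5 times or stayed within their interval. They include the alternative without barcodes above the doublet score, which removed no selected cell. That alternative could therefore not move the gene counts or the shares of GABAergic cells. Esr1 and Cacna1h had too few UMIs for a comparison. Apart from the removed cells, the cause of these changes was not tested.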
